A study of Mus musculus with 12 samples.

Results

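The genes described here are 10 genes of the dorsal neural tube and its roof plate, taken by name from the 36255 genes of the count table. They are the ligand genes Bmp7 and Gdf7, the response genes Id1 and Id3, and the transcription factor genes Msx1, Msx2, Msx3, Pax3, Pax7 and Lmx1a. All 10 were in the table. In both statistical fits 9 of them passed the filter on low counts, and Gdf7, with at most 1 read in any library, did not. The series measured polyadenylated RNA of mouse embryos by sequencing, and its title concerns SKP1A and genes silenced by Polycomb. The 11 libraries analysed fall into 6 groups. At 9.5 days post coitum (dpc) these are Skp1aKO (2 libraries), Skp1acont (2), Skp1acont PI (1), wt PI (2) and wt (2), and at 9.0 dpc there is wt (2). The 2 libraries of a group carry the lot numbers 1 and 2, and the lone Skp1acont PI library is lot 1. The words "cont", "PI", "mb" and "lot" are used as the titles have them, without a stated meaning, and the labels give no strain, allele, Cre driver or treatment. The sampled tissue is labelled only as embryo, whereas the design text of the series speaks of ES cells and embryoid bodies. Which part of an embryo was taken is not stated. No source says whether replicate libraries are from different embryos, so each p-value measures only the spread between libraries, which may be technical. In such bulk RNA, fewer cells of a type and less RNA per cell cannot be told apart.

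Bone morphogenetic proteins (BMPs) are secreted by the surface ectoderm next to the closing neural tube and later by the roof plate at its dorsal midline. They bind paired serine/threonine kinase receptors, whose phosphorylated SMAD proteins enter the nucleus with SMAD4 and switch on target genes, the Id genes among the most direct. The signal is strongest dorsally, where the Msx and Pax3 and Pax7 genes are active, while Sonic hedgehog from the floor plate represses Pax3 and Pax7 ventrally.

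Total counts were 2320599 to 4203553 in the 5 libraries with a Skp1a label and 3392251 to 11607085 in the 6 wt libraries, so 1 library's limit for a count of 0 (3 reads) lay between 0.323 and 1.101 CPM, the count scaled by depth and TMM factor. Such limits cover counting error only. Mitochondrial genes took 5.98% to 15.8% of counts in the libraries with a Skp1a label and 2.44% to 4.01% in wt libraries. A background rate was taken as the median CPM per kilobase of exon over 1772 odorant, vomeronasal and taste receptor genes. On the same scale it was 0.207 to 0.872 in the libraries with a Skp1a label and 0.0969 to 0.184 in wt libraries. The 2 Skp1acont libraries were unlike each other (r = 0.795 across genes on the log2 CPM scale), while the replicates of every other group gave r of 0.966 to 0.980. The targeted gene, Skp1a, was at 199 and 212 CPM in Skp1aKO and at 303 and 104 CPM in Skp1acont, with 273 CPM in the lone Skp1acont PI library. The 6 wt libraries held 930 to 1337 CPM of it. Against wt 9.5 dpc it was lower in Skp1aKO (log2 fold change -2.33 ± 0.54 SE, adjusted p = 0.0133) and in Skp1acont (-2.34 ± 0.54 SE, adjusted p = 0.0141), and the Skp1aKO and Skp1acont libraries overlapped (log2 fold change 0.01 ± 0.51 SE, adjusted p = 1). The groups are called by their labels below, and the Skp1a level does not separate Skp1aKO from Skp1acont.

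The paralogues Msx1 and Msx3, homeobox repressors, moved in opposite directions between wt ages, and the sequences just upstream of their starts are shown for that reason. RefSeq windows (GRCm38.p6) were matched for 7 of the 10 genes, and those of Msx1, Msx3, Lmx1a and Gdf7 were clear of exons but for at most 1 base. The Msx1 sequence is chr5:37824586-37824835, minus strand, and the Msx3 sequence is chr7:140049090-140049338, minus strand. Capitals mark CCAAT and CAGAC on either strand.
Msx1: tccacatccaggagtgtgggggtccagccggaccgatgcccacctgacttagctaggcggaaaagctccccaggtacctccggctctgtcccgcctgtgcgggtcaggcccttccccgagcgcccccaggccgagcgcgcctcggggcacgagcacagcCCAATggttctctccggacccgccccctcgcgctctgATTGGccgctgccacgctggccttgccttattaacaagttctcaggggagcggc
Msx3: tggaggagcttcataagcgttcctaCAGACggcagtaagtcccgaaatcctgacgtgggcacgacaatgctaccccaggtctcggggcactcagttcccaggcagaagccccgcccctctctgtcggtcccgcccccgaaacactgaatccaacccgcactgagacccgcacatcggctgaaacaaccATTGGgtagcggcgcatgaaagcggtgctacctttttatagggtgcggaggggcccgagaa
The Msx1 stretch held CCAAT 2 times and no CAGAC, the SMAD box. The Msx3 stretch held 1 of each. Neither held TAATTA, a homeodomain pair, or GGCGCC, a GC-rich element known from BMP-responsive promoters. Of all 32851 windows of this kind, 33.8% held CCAAT, 42.2% CAGAC, 4.84% TAATTA and 9.59% GGCGCC on either strand. These matches describe letters only.

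In wt embryos the dorsal genes split between the ages. At 9.5 dpc, against 9.0 dpc, Pax3, Pax7 and Msx1 were higher, and Id1, Id3, Msx2 and Msx3 were lower. With edgeR's quasi-likelihood test on the 6 wt libraries and an adjusted p under 0.05 as the threshold, 7 of the 9 tested genes passed, where 31.7% of all 13126 genes tested did. Of the 7, 3 were higher, where 15% of all genes were, and 4 were lower, where 16.7% were. The median log2 fold change was -0.59 over the 9 genes and -0.02 over all genes tested. When all 11 libraries shared 1 estimate of the spread, 0 of the 9 passed, while 4 passed with the DESeq2 Wald test or without lot 1 of wt 9.0 dpc.

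**Figure D1:**
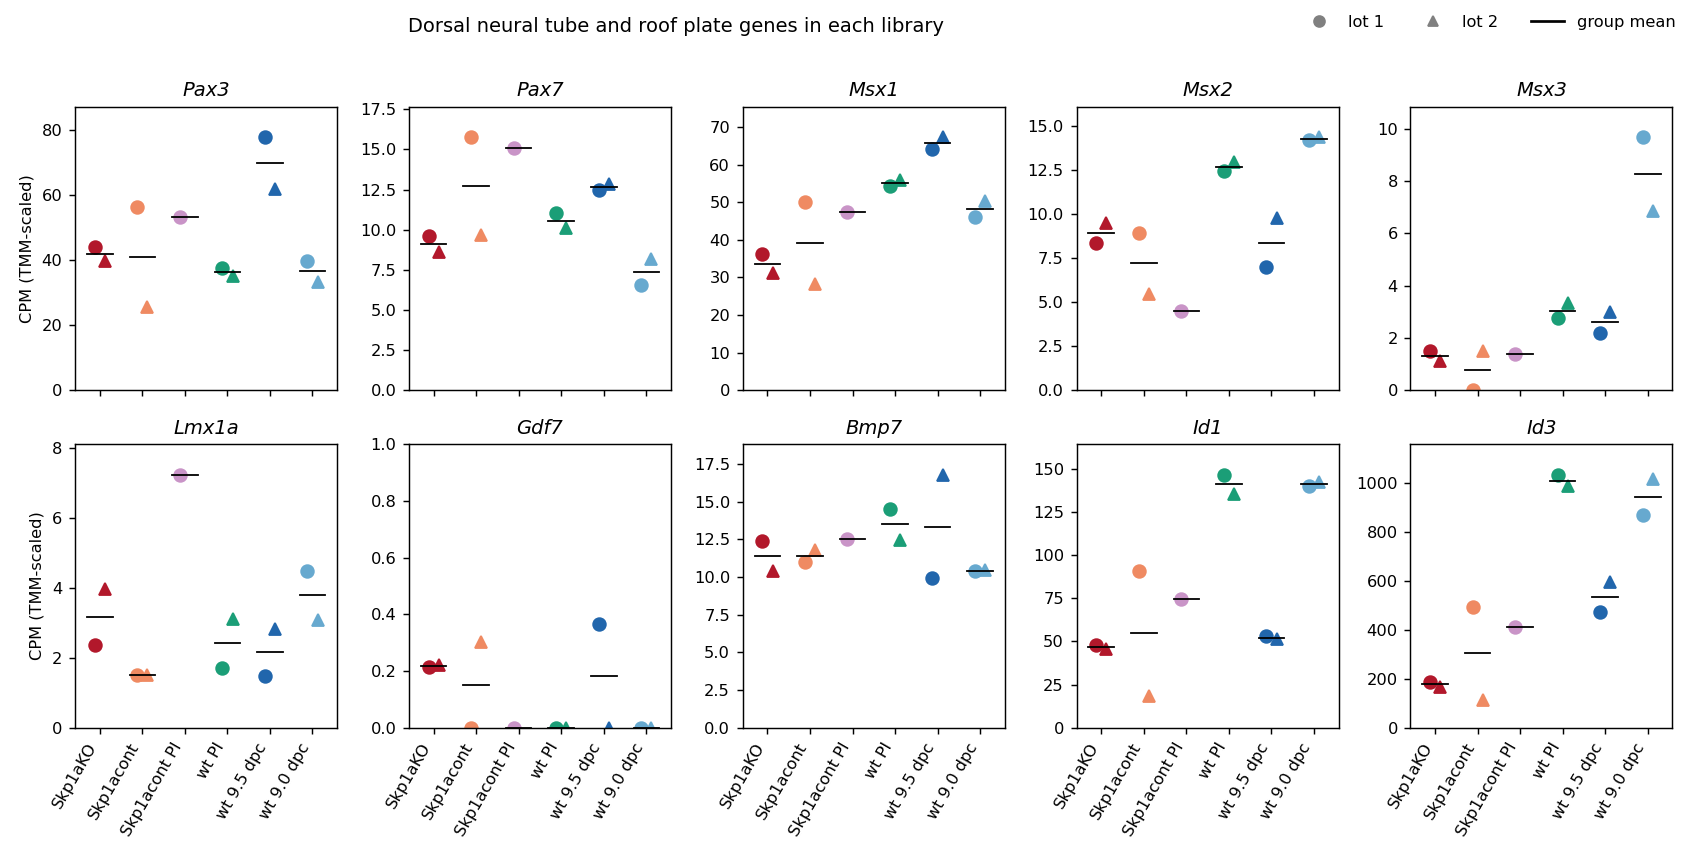
Each panel plots 1 gene, with TMM-scaled CPM on the vertical axis and the 6 groups on the horizontal axis; a circle is the lot 1 library, a triangle the lot 2 library and a line the group mean. Id1 and Id3 stood high in wt PI and wt 9.0 dpc and low in wt 9.5 dpc, and the 2 Skp1acont libraries were far apart in Pax3, Id1 and Id3.

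Among the response genes, Id1 encodes an inhibitor of basic helix-loop-helix factors and lies on chromosome 2 (152736251 to 152737410, plus strand, GRCm38). Id1 had 52.9 and 51.5 CPM at 9.5 dpc, against 140 and 142 CPM at 9.0 dpc. The groups did not overlap, and Id1 was 2.65-fold lower at 9.5 dpc (log2 fold change -1.41 ± 0.10 SE, adjusted p = 1.23e-05). Id3, a close relative on chromosome 4 (136143497 to 136145755, plus strand), had 474 and 595 CPM at 9.5 dpc, against 867 and 1014 CPM at 9.0 dpc. It too fell without overlap (log2 fold change -0.79 ± 0.12 SE, adjusted p = 0.00105). Per kilobase of exon, Id3 was the most abundant of the 10 genes in every library, at 63.0 to 576 CPM per kilobase.

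The 3 Msx genes did not move together. Msx1 (chromosome 5, 37820485 to 37824583, minus strand) also marks the ventral midbrain, so its level is not a dorsal readout alone. Msx1 had 64.2 and 67.4 CPM at 9.5 dpc, against 46.0 and 50.3 CPM at 9.0 dpc. It rose by 0.48 ± 0.10 SE on the log2 scale (adjusted p = 0.00674 by edgeR). Msx2, which acts beside Msx1 in the neural crest and roof plate and lies on chromosome 13 (53466884 to 53473074, minus strand), had 6.97 and 9.74 CPM at 9.5 dpc, against 14.2 and 14.3 CPM at 9.0 dpc. The log2 fold change of Msx2 was -0.69 ± 0.19 SE (adjusted p = 0.0208). Msx3 is the family member known in mouse for expression confined to the dorsal neural tube (chromosome 7, 140046157 to 140049089, minus strand). Msx3 had 2.20 and 2.98 CPM at 9.5 dpc, from 6 and 22 reads, against 9.69 and 6.87 CPM at 9.0 dpc, from 28 and 58 reads. It fell by 1.54 ± 0.32 SE on the log2 scale (adjusted p = 0.00566), and the ages did not overlap for any of the 3 genes.

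The paired-box genes were higher at 9.5 dpc. Pax3, required for neural tube closure and for the neural crest, lies on chromosome 1 (78101267 to 78197134, minus strand). Pax3 had 77.8 and 61.9 CPM at 9.5 dpc, against 39.8 and 33.2 CPM at 9.0 dpc, a 1.96-fold difference without overlap (log2 fold change 0.97 ± 0.15 SE, adjusted p = 0.00135). Pax7, its paralogue on chromosome 4 (139737062 to 139833528, minus strand), had 12.5 and 12.8 CPM at 9.5 dpc, against 6.57 and 8.18 CPM at 9.0 dpc. Pax7 rose 1.71-fold (log2 fold change 0.77 ± 0.20 SE, adjusted p = 0.015).

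The genes closest to the roof plate itself gave little signal. Lmx1a, the LIM homeobox gene that specifies the roof plate and is also active in the ventral midbrain (chromosome 1, 167689237 to 167848741, plus strand), had 1.47 and 2.84 CPM at 9.5 dpc, from 4 and 21 reads, against 4.50 and 3.08 CPM at 9.0 dpc, from 13 and 26 reads. The groups did not overlap with TMM scaling, and Lmx1a did not pass the test. Scaled by library totals alone they overlapped, with lot 2 at 2.28 CPM at 9.5 dpc and 2.24 CPM at 9.0 dpc. Bmp7, a roof plate and ectoderm ligand (chromosome 2, 172868012 to 172940321, minus strand), had 9.91 and 16.8 CPM at 9.5 dpc, against 10.4 and 10.4 CPM at 9.0 dpc. With TMM scaling the 9.5 dpc libraries lay on either side of the 9.0 dpc ones (adjusted p = 0.17 by edgeR). By library totals Bmp7 was at 7.96 and 13.5 CPM at 9.5 dpc, above the 7.49 and 7.58 CPM at 9.0 dpc. Gdf7, a ligand gene that marks the roof plate (chromosome 12, 8297918 to 8301954, minus strand), had 1 and 0 reads at 9.5 dpc and 0 and 0 reads at 9.0 dpc, which are at or under the limit of 3 reads, so no fold is given.

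The wt PI libraries, also of 9.5 dpc, stood apart from wt 9.5 dpc in the Id genes and Pax3. In this comparison 3 of the 9 genes passed the test, where 28% of all genes tested did, so the share was near that of all genes. Id1 had 147 and 136 CPM in wt PI, against 52.9 and 51.5 CPM in wt 9.5 dpc (log2 fold change 1.42 ± 0.10 SE, adjusted p = 4.87e-05). Id3 had 1032 and 984 CPM in wt PI, against 474 and 595 CPM in wt 9.5 dpc (log2 fold change 0.91 ± 0.12 SE, adjusted p = 0.00074). Pax3 had 37.6 and 35.0 CPM in wt PI, against 77.8 and 61.9 CPM in wt 9.5 dpc (log2 fold change -0.95 ± 0.15 SE, adjusted p = 0.00191). For none of these 3 genes did the groups overlap. Msx2, with 12.4 and 12.9 CPM in wt PI, against 6.97 and 9.74 CPM in wt 9.5 dpc, missed the threshold (log2 fold change 0.55 ± 0.19 SE, adjusted p = 0.0583). Msx1 had 54.5 and 55.9 CPM in wt PI, below the 64.2 and 67.4 CPM in wt 9.5 dpc, and also missed it (log2 fold change -0.26 ± 0.10 SE, adjusted p = 0.0877). With all 11 libraries in the fit, 0 of the 9 passed.

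Set against wt 9.0 dpc, wt PI differed in Msx3 alone of the 9 genes tested, where 15.6% of all genes passed, 8.6% as higher and 6.99% as lower. This comparison was added after the data were seen, and each of the 3 wt comparisons shares libraries with the other two. Msx3 had 2.76 and 3.33 CPM in wt PI, against 9.69 and 6.87 CPM in wt 9.0 dpc (log2 fold change -1.33 ± 0.31 SE, adjusted p = 0.019). That call was lost (0 of 9) when lot 1 of wt 9.0 dpc or either wt PI library was left out, when all 11 libraries were fitted together, and with the DESeq2 Wald test. Pax7, with 11.03 and 10.1 CPM in wt PI, against 6.57 and 8.18 CPM in wt 9.0 dpc, did not overlap and did not pass (log2 fold change 0.49 ± 0.20 SE, adjusted p = 0.126). Id1 was at 147 and 136 CPM in wt PI and at 140 and 142 CPM in wt 9.0 dpc, so its ranges overlapped, as did those of Id3 (1032 and 984 CPM in wt PI, 867 and 1014 CPM in wt 9.0 dpc) and Pax3 (37.6 and 35.0 CPM in wt PI, 39.8 and 33.2 CPM in wt 9.0 dpc). Msx1, Msx2 and Bmp7 also did not overlap with TMM scaling and did not pass. Msx1 had 54.5 and 55.9 CPM in wt PI, against 46.0 and 50.3 CPM in wt 9.0 dpc. Msx2 had 12.4 and 12.9 CPM in wt PI, against 14.2 and 14.3 CPM. Bmp7 had 14.5 and 12.5 CPM in wt PI, against 10.4 and 10.4 CPM. By library totals Msx2 overlapped, at 9.91 and 10.7 CPM in wt PI, against 10.2 and 10.4 CPM. Lmx1a overlapped with TMM scaling and gave no call.

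**Figure D2:**
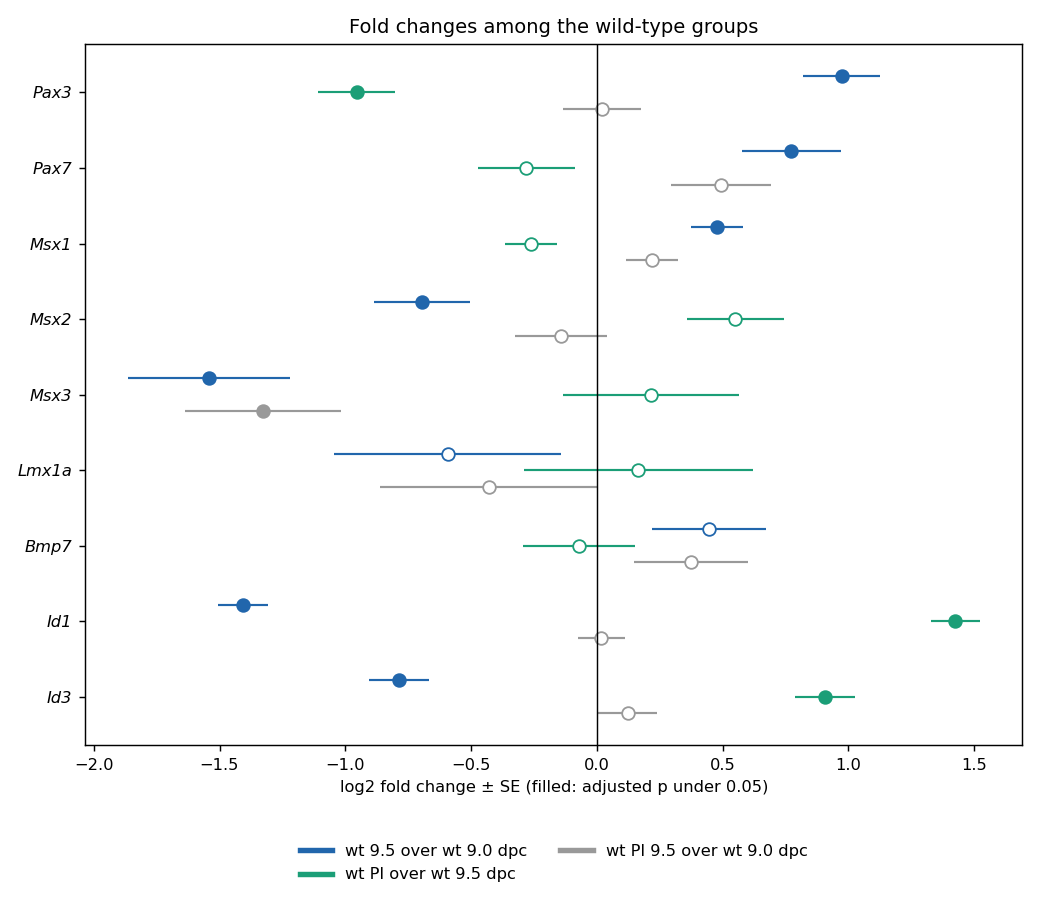
For each of the 9 tested genes the horizontal axis gives the log2 fold change with its standard error in 3 comparisons of the wt groups; filled points passed the test at an adjusted p under 0.05. Id1 lay at -1.41 for wt 9.5 over 9.0 dpc and at 1.42 for wt PI over wt 9.5 dpc, 2 comparisons that share the wt 9.5 dpc libraries.

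Markers of other tissues moved with these wt differences, and their part in them was not tested. The summed surface ectoderm list, whose cells also express Id and Msx genes, stood at 45.5 and 53.7 CPM in wt 9.5 dpc, against 259 and 267 CPM in wt 9.0 dpc, and 7 of its 8 tested genes of 9 listed were lower. The neural crest list stood at 149 and 133 CPM in wt 9.5 dpc, against 197 and 199 CPM in wt 9.0 dpc, with 6 of 8 genes lower and 1 higher. The head mesenchyme list stood at 144 and 132 CPM in wt 9.5 dpc, against 196 and 169 CPM in wt 9.0 dpc (4 of 8 tested genes lower, 1 higher). The general neural tube list was higher at 9.5 dpc, at 779 and 698 CPM, against 411 and 430 CPM at 9.0 dpc (5 of 9 tested genes higher, 2 lower). The primitive erythroid list was at 15546 and 21140 CPM in wt 9.5 dpc, against 8420 and 8297 CPM in wt 9.0 dpc, with 3 of 6 genes higher. In wt PI it was at 7653 and 10062 CPM, with 3 of 6 genes lower than in wt 9.5 dpc. The neural tube list in wt PI was at 551 and 523 CPM, the surface ectoderm list at 66.2 and 52.7 CPM and the neural crest list at 90.7 and 90.8 CPM.

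The floor plate, the ventral counterpart of the roof plate, gave its lowest marker levels in wt 9.5 dpc, the wt group with the highest Pax3. Its summed list stood at 71.4 and 78.6 CPM in wt PI, 12.5 and 9.06 CPM in wt 9.5 dpc and 64.7 and 57.4 CPM in wt 9.0 dpc. Its defining gene Foxa2 had 13.8 and 13.01 CPM in wt PI, 0 reads in both wt 9.5 dpc libraries and 11.8 and 11.5 CPM in wt 9.0 dpc. Shh, the ventral signal, had 1.101 and 0.406 CPM in wt 9.5 dpc, against 13.8 and 9.72 CPM in wt 9.0 dpc (log2 fold change -4.17 ± 0.45 SE, adjusted p = 0.000202). In wt PI it had 11.7 and 16.9 CPM, above wt 9.5 dpc (log2 fold change 4.55 ± 0.44 SE, adjusted p = 0.000232). Of the 6 tested floor plate genes of 8 listed, 5 were lower and 1 was higher in wt 9.5 dpc than in wt 9.0 dpc, and 5 were higher in wt PI than in wt 9.5 dpc.

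**Figure D3:**
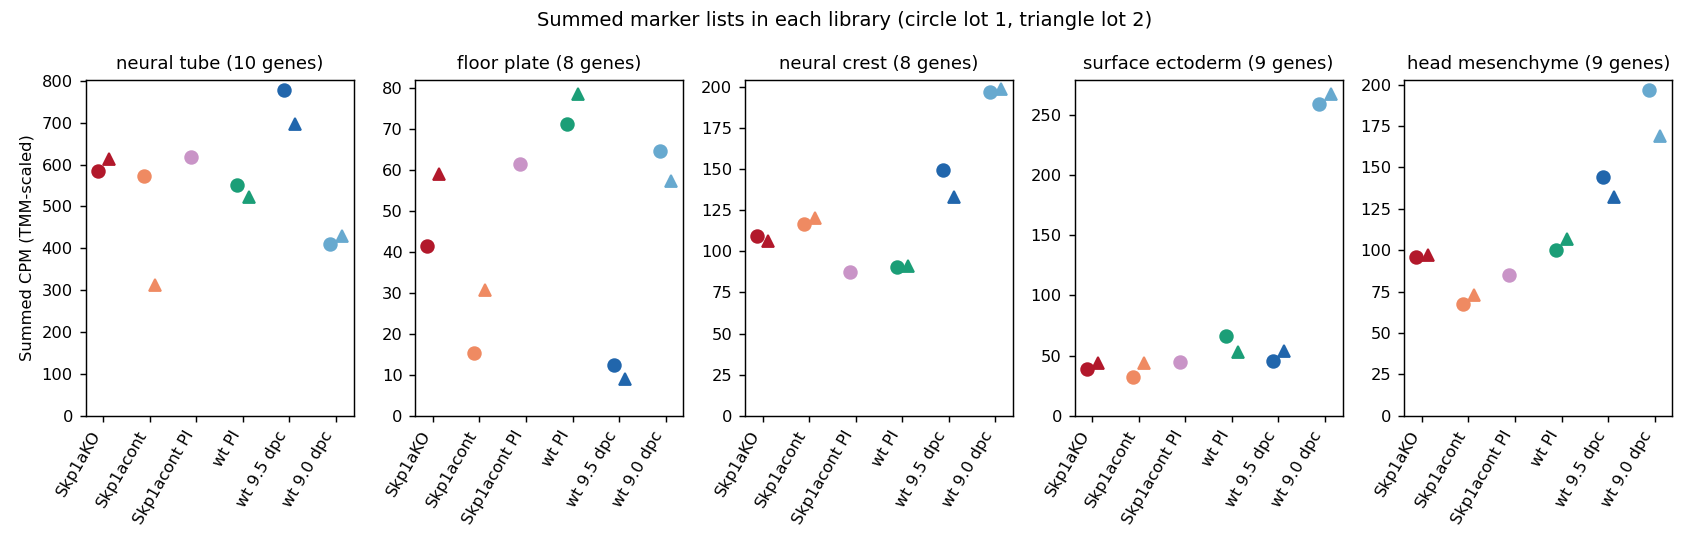
Summed CPM of 5 marker lists (vertical axis) in each library by group (horizontal axis); circles are lot 1 and triangles lot 2. The floor plate list was at 12.5 and 9.06 CPM in wt 9.5 dpc, and the surface ectoderm list was at 259 and 267 CPM in wt 9.0 dpc, against 32.3 to 66.2 CPM in all other libraries.

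Around the 10 genes, the BMP pathway of wt embryos showed no common direction between the ages. Among 5 tested of 6 other ligand genes, Bmp2 and Bmp5 were lower at 9.5 dpc than at 9.0 dpc (log2 fold changes -2.76 and -1.32) and Bmp6 was higher (2.99). Of 6 tested antagonist genes of 9 listed, which encode secreted proteins that bind BMPs, Fst, Grem1 and Bmper were lower (-0.55, -1.31 and -3.11) and Twsg1 was higher (0.34). Of 6 receptor genes, 3 were higher and none lower, namely Bmpr2 (1.07), Acvr2a (0.85) and Bmpr1b (1.35). None of the 6 tested of 7 SMAD pathway genes passed. The Id genes were split, since Id2 was lower (-0.93), like Id1 and Id3, while Id4 was higher (0.84), as was Hey1 (0.88), a Notch and BMP target. Of 12 tested of 16 other dorsal and roof plate genes, 5 were higher and 2 lower. Among those higher were Zic1, with 209 and 213 CPM at 9.5 dpc, against 38.4 and 37.2 CPM at 9.0 dpc, Zic5, and the Wnt agonists Rspo1 and Rspo3 of the roof plate. The 2 lower genes were Lmx1b, with 2.57 and 4.33 CPM at 9.5 dpc, against 10.03 and 8.53 CPM at 9.0 dpc, and Olig3, with 0.367 and 0.947 CPM at 9.5 dpc, against 4.50 and 2.25 CPM at 9.0 dpc.

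In wt PI, against wt 9.5 dpc, these neighbours moved in both directions. Of all genes tested 15.6% were higher and 12.4% lower in this comparison. Zic1 fell to 88.3 and 76.3 CPM (log2 fold change -1.37), and Rspo1 and Rspo3 were also lower, while Lmx1b (1.28) and Wnt1 (1.27), a roof plate and midbrain Wnt gene, were higher. Of the 12 tested genes of that list, 2 were higher and 4 lower. Id2 was higher (0.49) and Id4 lower (-0.71), the reverse of their signs between the ages, in a comparison that shares the wt 9.5 dpc libraries. Of the 5 tested ligand genes 0 passed, of the 6 antagonists Fst was lower, of the 6 receptors Bmpr2 and Acvr2a were lower, and of the 6 SMAD pathway genes Smad4 and Bambi were lower.

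Between the libraries labelled Skp1aKO and those labelled Skp1acont, 0 of the 9 genes passed edgeR's quasi-likelihood test in the fit of all 11 libraries. Of all 18837 genes tested 0% passed, 1308 had an unadjusted p under 0.05 and the DESeq2 Wald test called 95. None of the 9 had an unadjusted p under 0.05, and DESeq2 called 0 of them. Id3 had 188 and 167 CPM in Skp1aKO, against 494 and 113 CPM in Skp1acont (log2 fold change -0.78 ± 0.60 SE, adjusted p = 0.934). Id1 had 47.7 and 45.7 CPM in Skp1aKO, against 91.0 and 18.4 CPM in Skp1acont (log2 fold change -0.24 ± 0.56 SE). Pax3 had 43.9 and 39.7 CPM in Skp1aKO, against 56.4 and 25.7 CPM in Skp1acont (log2 fold change 0.02 ± 0.36 SE). For all 3 genes both Skp1aKO libraries lay between the Skp1acont libraries. The direction therefore turned on which Skp1acont library was kept. Without its lot 1, 3 genes passed as higher in Skp1aKO, namely Id1 (1.32), Id3 (0.63) and Pax3 (0.68), in a fit where 31.3% of all genes passed. Without its lot 2, Id1 (-0.94), Id3 (-1.46) and Pax7 (-0.77) passed as lower, Pax3 stood at -0.41, and Msx3, at 0 reads in the library kept, made 4 calls, where 27.3% of all genes passed.

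Against wt 9.5 dpc, Msx1 was the only 1 of the 9 genes to pass in Skp1aKO, where 36.4% of all 18837 genes did and 18.7% were lower. Msx1 had 36.2 and 31.1 CPM in Skp1aKO, against 64.2 and 67.4 CPM in wt 9.5 dpc, and was 1.96-fold lower without overlap (log2 fold change -0.97 ± 0.31 SE, adjusted p = 0.0383). The call was lost (0 of 9) with scaling by library totals (log2 fold change -0.17, adjusted p = 0.629), with no filter, with the background rate subtracted (log2 fold change -0.42, adjusted p = 0.105) and when any 1 of the 4 libraries was left out. Id3 had 188 and 167 CPM in Skp1aKO, against 474 and 595 CPM in wt 9.5 dpc, and missed the threshold (log2 fold change -1.59 ± 0.61 SE, adjusted p = 0.0632). Pax3 had 43.9 and 39.7 CPM in Skp1aKO, against 77.8 and 61.9 CPM in wt 9.5 dpc (log2 fold change -0.74 ± 0.36 SE, adjusted p = 0.126, and 0.07 with library totals). Both genes were also without overlap with TMM scaling. By library totals Pax3 in Skp1aKO, at 56.9 and 59.7 CPM, lay between the wt 9.5 dpc libraries (62.5 and 49.7 CPM). Id3 and Pax3 both passed, with Msx1, in the fit of these 4 libraries alone, where 69.3% of all genes passed. When lot 2 of Skp1acont was left out, the log2 fold changes were -1.45 for Id3 and -0.59 for Pax3. With TMM scaling Id1 was close in level, at 47.7 and 45.7 CPM in Skp1aKO and 52.9 and 51.5 CPM in wt 9.5 dpc. By library totals Id1 was higher in Skp1aKO, at 61.9 and 68.6 CPM, against 42.4 and 41.3 CPM in wt 9.5 dpc. The median log2 fold change was -0.47 over the 9 genes and 0.24 over all genes, and library totals moved the median of all genes by 0.80. Under library totals the calls over all genes became 6829 higher and 1395 lower, against 3323 higher and 3529 lower with TMM scaling.

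Skp1acont, compared with the same wt 9.5 dpc libraries, gave 0 calls among the 9 genes, where 36.4% of all genes passed, 19.3% as higher and 17.1% as lower. None but Msx1 had an unadjusted p under 0.05, and the DESeq2 Wald test called 0. Msx1 had 49.97 and 28.4 CPM in Skp1acont, against 64.2 and 67.4 CPM in wt 9.5 dpc (log2 fold change -0.74 ± 0.31 SE, adjusted p = 0.0818). Pax3 at 56.4 and 25.7 CPM in Skp1acont was also below both wt 9.5 dpc libraries (77.8 and 61.9 CPM) with TMM scaling. By library totals Pax3 in Skp1acont, at 70.7 and 36.6 CPM, lay on either side of wt 9.5 dpc (62.5 and 49.7 CPM). The log2 fold changes with library totals were -0.05 for Pax3 and -0.02 for Msx1. Id1 at 91.0 and 18.4 CPM in Skp1acont lay on either side of the 52.9 and 51.5 CPM in wt 9.5 dpc. Leaving out lot 1 of Skp1acont put 4 genes past the threshold as lower, with Id1 at -1.46, where 74% of all genes passed. Leaving out lot 2 put 2 past it, Id1 as higher, at 0.93, and Msx3, at 0 reads in the library kept, where 39.1% of all genes passed. The 2 comparisons with wt 9.5 dpc share their wt libraries.

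The lone Skp1acont PI library differed from wt PI in 0 of the 9 genes, where 0.441% of all genes (83) passed, 0.111% as higher and 0.329% as lower. Msx2 had 4.50 CPM in Skp1acont PI, against 12.4 and 12.9 CPM in wt PI (log2 fold change -1.49 ± 0.42 SE, adjusted p = 0.093). Lmx1a had 7.24 CPM in Skp1acont PI, its highest value in the series, against 1.72 and 3.12 CPM in wt PI (log2 fold change 1.497 ± 0.59 SE, adjusted p = 0.166). These were the genes of the 9 with an unadjusted p under 0.05, and the DESeq2 Wald test called 0. Id1 had 74.7 CPM in Skp1acont PI, against 147 and 136 CPM in wt PI, and Id3 had 412 CPM in Skp1acont PI, against 1032 and 984 CPM in wt PI. Pax3 had 53.2 CPM in Skp1acont PI, above the 37.6 and 35.0 CPM in wt PI. When lot 2 of Skp1acont was left out of the fit, these 5 genes passed, where 43.2% of all genes did. These fits take the spread of the lone library from the other groups. Whether the gap between Skp1acont and wt itself differed with PI was tested as an interaction, in which 0 of the 9 genes and 0% of all genes passed (1198 genes with an unadjusted p under 0.05, 5 genes by DESeq2). Of the 9 genes, Pax3, Msx2 and Lmx1a had an unadjusted p under 0.05 (0.0436, 0.0372 and 0.0319), each with an adjusted p of 0.77.

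**Figure D4:**
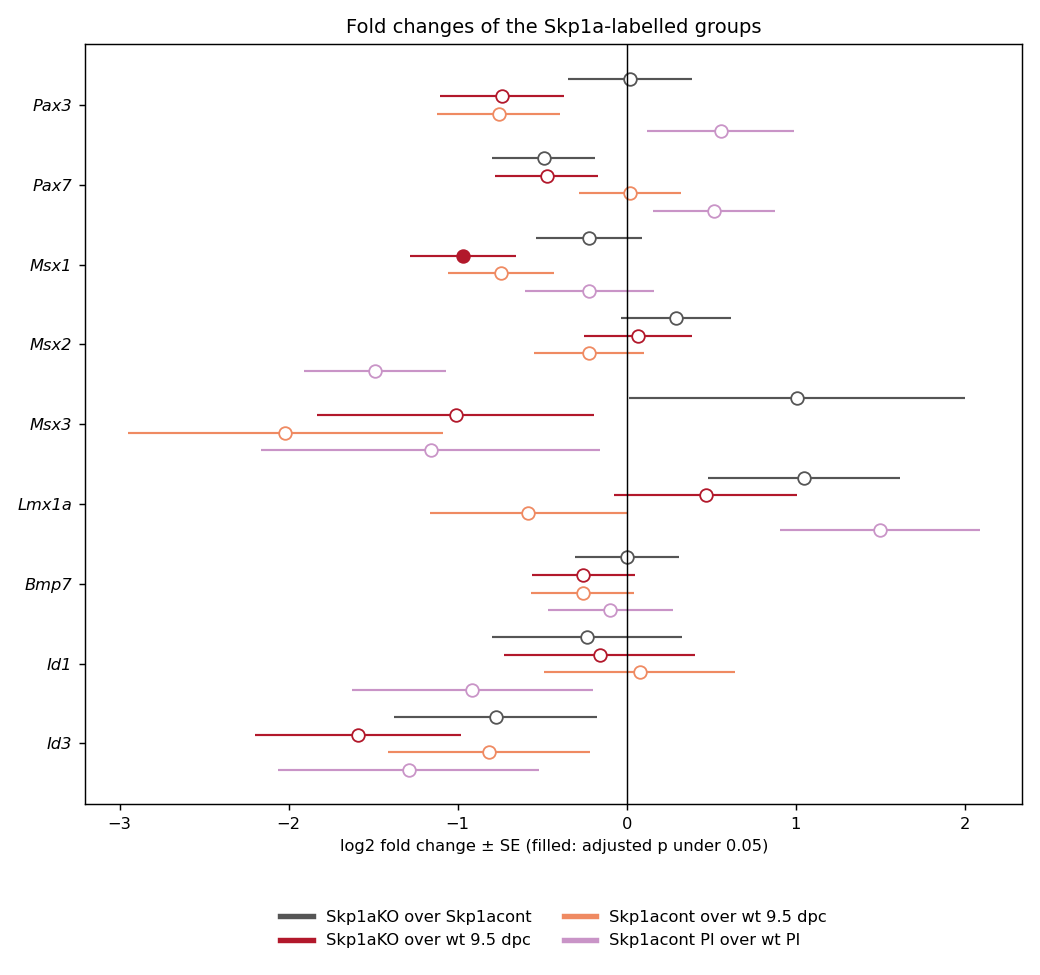
For each of the 9 tested genes the horizontal axis gives the log2 fold change with its standard error in 4 comparisons with a Skp1a label; the filled point, Msx1 in Skp1aKO over wt 9.5 dpc at -0.97, is the only 1 past an adjusted p of 0.05. Error bars here are wider than among the wt groups, with standard errors of 0.31 against 0.10 for Msx1.

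None of Pax7, Msx2 and Bmp7 passed in a comparison with a Skp1a label when all 11 libraries were in the fit. Pax7 had 9.63 and 8.61 CPM in Skp1aKO and 15.8 and 9.66 CPM in Skp1acont, against 12.5 and 12.8 CPM in wt 9.5 dpc, and 15.1 CPM in Skp1acont PI, against 11.03 and 10.1 CPM in wt PI. Both Skp1aKO libraries were thus below both wt 9.5 dpc libraries with TMM scaling, without passing the test. Scaled by library totals, Pax7 was higher in Skp1aKO, at 12.5 and 12.9 CPM, against 10.02 and 10.3 CPM in wt 9.5 dpc. Msx2 had 8.35 and 9.496 CPM in Skp1aKO and 8.93 and 5.43 CPM in Skp1acont. With TMM scaling both groups overlapped the 6.97 and 9.74 CPM of wt 9.5 dpc. By library totals Msx2 in Skp1aKO was at 10.8 and 14.3 CPM, above the 5.60 and 7.81 CPM of wt 9.5 dpc. Msx1 in Skp1acont PI, at 47.4 CPM, was below the 54.5 and 55.9 CPM of wt PI with TMM scaling. By library totals Msx1 was higher in Skp1acont PI, at 58.6 CPM, against 43.5 and 46.5 CPM in wt PI. With TMM scaling Bmp7 stayed between 9.91 and 16.8 CPM in all 11 libraries, both extremes in wt 9.5 dpc. By library totals Bmp7 was at 16.1 and 15.6 CPM in Skp1aKO and at 13.8 and 16.8 CPM in Skp1acont. Both groups then lay above the 7.96 and 13.5 CPM of wt 9.5 dpc.

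Low reads in the libraries with a Skp1a label have to be read against their background rate. Lmx1a had 11 and 18 reads in Skp1aKO, where the background rate over its exons gives 7.33 and 7.86 reads, and 8 and 5 reads in Skp1acont, where it gives 3.71 and 9.81. In Skp1acont PI it had 37 reads where the background gives 3.75. Msx3 had 7 and 5 reads in Skp1aKO, where the background gives 5.09 and 5.46, and 0 and 5 reads in Skp1acont, where it gives 2.57 and 6.80. Its level in these groups was therefore not separable from background, and its 6 to 58 reads in wt libraries stood above the 0.622 to 4.03 that the background gives there. Gdf7 had 1 and 1 reads in Skp1aKO, 0 and 1 in Skp1acont and 0 in Skp1acont PI, all within the 3-read limit. The background gives 3.07 and 3.30 reads in Skp1aKO, 1.55 and 4.11 in Skp1acont and 1.57 in Skp1acont PI. Each of these was above the reads seen, so for Gdf7 the background rate was too high. Pax7 had 45 and 39 reads in Skp1aKO, over a background of 12.6 and 13.6, and 83 and 32 reads in Skp1acont, over 6.39 and 16.9. Msx2 had 39 and 43 reads in Skp1aKO, over 7.08 and 7.59, and 47 and 18 reads in Skp1acont, over 3.58 and 9.47, so in lot 2 of Skp1acont the background came to 52.9% of the reads of Pax7 and 52.6% of those of Msx2.

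**Figure D5:**
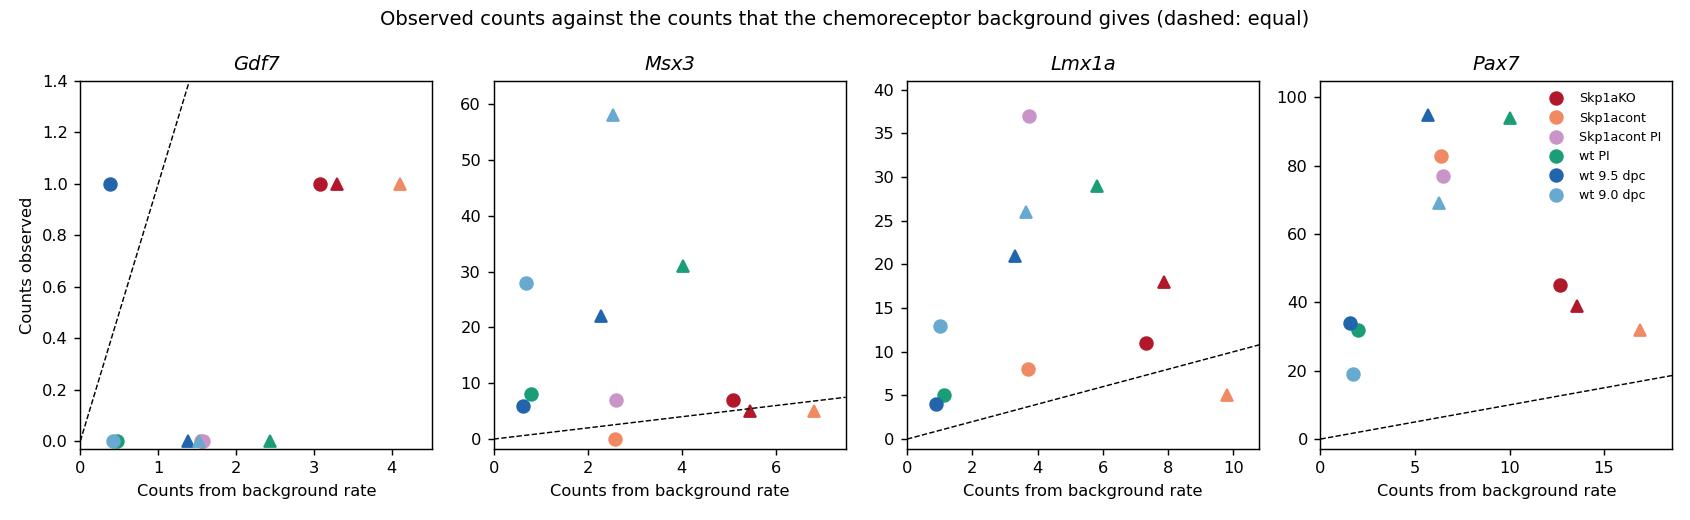
Reads observed (vertical axis) are plotted against reads that the background rate gives over the exons (horizontal axis) for Gdf7, Msx3, Lmx1a and Pax7; each point is 1 library, circles lot 1 and triangles lot 2, and the dashed line marks equality. Msx3 in Skp1aKO (7 and 5 reads) lay near the line, and Lmx1a in Skp1acont PI (37 reads) well above it.

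The wider pathway in Skp1aKO, against wt 9.5 dpc, is given with TMM scaling, under which 36.4% of all genes passed, 17.6% as higher and 18.7% as lower. Of 5 tested other ligand genes Bmp4 was lower (log2 fold change -1.42), and of 8 tested antagonists Grem1 was lower (-1.57). Of 6 receptor genes, 3 were lower, namely the type I receptor gene Bmpr1a (-1.80) and the type II receptor genes Bmpr2 (-1.05) and Acvr2a (-1.52), and Acvr2b was higher (1.36). Of 7 SMAD pathway genes, Smad4 (-1.45) and Bambi (-1.66), which encodes a decoy receptor induced by BMP, were lower. Of 4 other response genes, Id4 (-1.59) and Hey1 (-0.97) were lower. Of 14 tested other dorsal genes, Zic1 (-1.89), Zic5, Rspo1 and Rspo3 were lower and Lmx1b was higher (1.79). In Skp1acont, against the same wt libraries, Id4, Hey1, Smad4, Bmpr1a, Bmpr2, Acvr2a, Zic1, Zic5 and Rspo3 were also lower, as were Nog, Fst and Twsg1, and Lmx1b was higher. Library totals brought several of these log2 fold changes nearer 0, to -0.15 for Hey1, -0.24 for Bmpr2, -0.34 for Rspo1 and -0.63 for Bmp4 in Skp1aKO. Of 13 alternatives, Bmp4 was called in 5 and Hey1 and Rspo1 in 6 each, and in Skp1acont Nog was called in 3 of 12. In Skp1aKO against Skp1acont and in Skp1acont PI against wt PI, 0 genes of these lists passed.

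Tissue markers moved with the Skp1a labels too, and their part in the levels of the 10 genes was not tested. The floor plate list stood at 41.5 and 59.2 CPM in Skp1aKO and 15.4 and 30.8 CPM in Skp1acont, against 12.5 and 9.06 CPM in wt 9.5 dpc, with 6 of 7 tested genes higher in Skp1aKO than in wt 9.5 dpc and 4 in Skp1acont. Foxa2 had 9.85 and 12.8 CPM in Skp1aKO and 2.47 and 6.64 CPM in Skp1acont, against 0 reads in both wt 9.5 dpc libraries. In Skp1acont PI the floor plate list was at 61.4 CPM, against 71.4 and 78.6 CPM in wt PI. With TMM scaling the neural tube list was at 583 and 613 CPM in Skp1aKO and 573 and 311 CPM in Skp1acont. In wt 9.5 dpc it was at 779 and 698 CPM, and on that scale the lot 2 Skp1acont library was the lowest of all 11. Of the 10 neural tube genes, 4 were higher and 1 lower in Skp1aKO than in wt 9.5 dpc. In Skp1acont 2 were higher and 2 lower. With TMM the neural crest list was at 109 and 106 CPM in Skp1aKO, against 149 and 133 CPM in wt 9.5 dpc. Of its 8 genes 1 was higher and 2 lower. The head mesenchyme list was at 96.1 and 97.4 CPM, against 144 and 132 CPM (2 of 8 tested genes higher, 2 lower). The surface ectoderm list was at 39.2 and 43.7 CPM, against 45.5 and 53.7 CPM (1 of 9 genes higher, 2 lower). In Skp1acont these lists, in this order, were at 117 and 120, 67.3 and 72.8, and 32.3 and 44.1 CPM. The sums depend on the scaling, with TMM factors of 1.30 and 1.51 in Skp1aKO and 0.804 and 0.803 in wt 9.5 dpc. The primitive erythroid list was at 986 and 759 CPM in Skp1aKO and 2447 and 682 CPM in Skp1acont, against 15546 and 21140 CPM in wt 9.5 dpc, and 5 of its 6 genes were lower in both comparisons. The neural tube list, at 311 to 779 CPM over the 11 libraries, was present in every group, although the labels name only the embryo.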

How the data were processed

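The authors deposited 1 table of read counts, whole numbers for each gene without normalization. The submitters' processing notes name Trim Galore 0.6.7 and the build GRCm38 (mm10). The sources used here give neither the aligner and counter nor whether strand was used. One of the 12 labelled libraries, Skp1acont PI lot 2, was not analysed here. Libraries were grouped by title. The 10 genes and the gene lists were chosen with earlier results of these data known, and all 10 genes are named. Genes of other lists are named where they passed a test, at most 4 a list by smallest adjusted p, besides Shh, Foxa2 and Skp1a; the further names were chosen after their values were seen. Counts were filtered by filterByExpr, TMM-scaled and tested with edgeR 4.0.16 (R 4.3.3) by the robust quasi-likelihood test, two-sided, with Benjamini-Hochberg adjustment over all genes and a threshold of 0.05. Comparisons with a Skp1a label used all 11 libraries in 1 fit (18837 genes, biological coefficient of variation 35.3%), and comparisons among wt groups used the 6 wt libraries (13126 genes, 19.6%). CPM values come from the scaling of all 11. Standard errors are the log2 fold change over the root of F. Exon lengths come from GENCODE M21. Alternatives were other scalings, DESeq2 1.42.0, other filters, a replicate block, other sets of libraries and leaving out each library; the subtraction of background reads and the comparison of wt PI with wt 9.0 dpc were added after seeing the data. On simulated counts, genes changed 8-fold were recovered at 96% for Skp1aKO against wt 9.5 dpc and 100% for wt 9.5 against 9.0 dpc, and genes changed 2-fold at 6% and 36%.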

Additional observations from a re-analysis of the deposited data

How the results depend on the processing

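Depth limits Msx3, Lmx1a and Gdf7 most, and in groups of 2 libraries 1 library often decided a call. Of the 9 tested genes, the 1 call for Skp1aKO against wt 9.5 dpc became 0 with library totals, no filter or background reads subtracted, 2 with the DESeq2 Wald test and 3 in the fit of only those groups. For Skp1acont against wt 9.5 dpc 0 became 1 with background reads subtracted. With all libraries in the fit the calls became 0 in each wt comparison, and with the Wald test the 7 for wt 9.5 against 9.0 dpc became 4 and the 1 for wt PI against wt 9.0 dpc became 0. Leaving out 1 library gave 0 to 4 calls for Skp1aKO against Skp1acont, 0 to 3 for Skp1aKO and 0 to 4 for Skp1acont against wt 9.5 dpc, 0 to 5 for Skp1acont PI against wt PI, 4 to 7 for wt 9.5 against 9.0 dpc, 3 to 4 and 0 to 1 for wt PI against wt 9.5 and 9.0 dpc, and 0 to 3 for the interaction. Skp1acont PI, with 1 library, could not be left out.

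Single log2 fold changes that turned sign belonged to genes not called in that comparison. Between Skp1aKO and Skp1acont, Pax3 was -0.0177 with no filter, and leaving out 1 library gave -0.41 to 0.68 for Pax3, -0.94 to 1.32 for Id1, -1.46 to 0.63 for Id3 and -0.23 to 5.89 for Msx3, whose upper value rests on a library at 0 reads and is no bound. Pax3 in Skp1aKO against wt 9.5 dpc was 0.0650 with library totals. In Skp1acont against wt 9.5 dpc, leaving out 1 library gave -1.46 to 0.93 for Id1 and -2.21 to 0.00840 for Id3. Bmp7 at 9.5 against 9.0 dpc gave -0.00081 to 0.73. The causes were not tested.

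With 2 lots, shared lot numbers do not establish pairs. Deviations of the same lot correlated at 0.456 to 0.501 between wt groups and at -0.011 to 0.180 in pairs with a Skp1a label. With the lot as a replicate block, 8 genes were called for wt 9.5 against 9.0 dpc (Bmp7 added, adjusted p = 0.0484 by edgeR) and 5 for wt PI against wt 9.5 dpc (Msx2 and Msx1 added, adjusted p = 0.0321 and 0.0467), Id1 in Skp1acont against wt 9.5 dpc was -0.0730, and calls over all genes moved to 3735 for wt PI against wt 9.0 dpc, 17 for Skp1acont PI against wt PI and 1 for Skp1aKO against Skp1acont.

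Over all genes, alternatives without a left-out library gave 0 to 95 calls for Skp1aKO against Skp1acont (as reported 0, Wald test 95), down to 3923 for Skp1aKO (as reported 6852) and 4265 for Skp1acont (as reported 6866) against wt 9.5 dpc with background reads subtracted, and 0 for the Skp1acont pair fitted alone. They gave 0 to 1811 for Skp1acont PI against wt PI (as reported 83), 302 for wt 9.5 against 9.0 dpc (as reported 4161), 13 for wt PI against wt 9.5 dpc (as reported 3669) and 2 for wt PI against wt 9.0 dpc (as reported 2046) with all libraries in the fit. Leaving out 1 library gave 4650 and 5723 for Skp1aKO against Skp1acont without lot 2 and lot 1 of Skp1acont, 281 to 11548 for Skp1aKO and 13 to 13512 for Skp1acont against wt 9.5 dpc, 1 to 7347 for Skp1acont PI against wt PI, as few as 2503, 1289 and 320 for the 3 wt comparisons in the order above, and up to 6507 for the interaction (0 as reported). Library totals raised the share of higher calls to 85.1% (53.0% with TMM) for Skp1acont against wt 9.5 dpc, 88.8% (25.3%) for Skp1acont PI against wt PI, 64.0% (47.2%) for wt 9.5 against 9.0 dpc and 78.4% (55.2%) for wt PI against wt 9.0 dpc.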
